A study of Mus musculus with 6 samples.

Results

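Genes that mark macrophages and their relatives were followed through RNA from primary retinal pigment epithelium (RPE), the pigmented cell sheet that serves the photoreceptors of the eye. The 10 genes were Lyz2, Ptprc, Cd68, Adgre1, Aif1, Mpeg1, Laptm5, Spi1, Irf8 and Cd53, taken by gene symbol from the 28043 genes of the tables, and all 10 passed the filter on low counts that left 15766 genes for testing. There were 3 libraries labelled PVR, from mice with proliferative vitreoretinopathy (traumatic, per the series title), a scarring disorder in which cells form contractile membranes in the eye, set against 3 labelled Normal, from normal mice. All 6 were polyadenylated RNA of primary RPE cells, and the labels name no strain, age, time after injury or pooling. Values are normalised read counts, that is, reads per gene divided by 1 size factor per library, and each log2 change gives PVR minus Normal after adding a pseudocount of 1, so that changes of genes with few reads come out too small. The labels leave unsaid whether replicates were different animals. The p-values therefore reflect library-to-library spread, possibly technical, and nothing wider.

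Macrophages, monocytes and microglia arise from myeloid precursors under the transcription factor PU.1, the product of Spi1, which works with IRF8 to switch on genes for phagocytosis and antigen handling. A healthy RPE layer is not a leukocyte tissue, whereas the choroid behind it and the retina in front of it hold resident macrophages and microglia. Several of the 10 genes are shared with other blood cells. Ptprc, Laptm5 and Cd53 are on in nearly all leukocytes, Spi1 and Irf8 also act in B cells and dendritic cells, and Lyz2 is also strong in neutrophils.

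Between 15269983 and 19173187 reads per library fell on genes. The label of the cells was borne out by most of their markers in both groups. All 15 RPE markers examined had reads, but Best1 had few (16, 20 and 8 in PVR replicates 1 to 3, against 10, 13 and 15 in Normal). The summed level of the 15 was 642234 to 708283 normalised counts in PVR and 886865 to 960202 in Normal libraries. Without Ttr, the highest of them in PVR, it was 345096 to 404004 in PVR and 631946 to 684588 in Normal. Of these 15 markers 7 were lower, 1 was higher and 7 were not called. Libraries of bulk RNA cannot tell more cells of a type from more RNA per cell, and this holds for every level below.

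All 10 genes were higher in PVR (limma without a replicate block, adjusted p between 3.84e-05 and 0.00709). With the replicate number as a block 9 of the 10 were called higher, all but Cd68. Over all 15766 genes tested, 17.9% were called higher, 12.9% lower and 30.8% in either direction. A log2 change of at least 3 with a call of higher was found for 10 of the 10 genes and for 3.55% of all genes tested. The 10 log2 changes ran from 3.21 for Irf8 to 6.20 for Lyz2 with a median of 4.24, against a median of -0.02 over all genes tested. Ratios of the group means ran from 9.33 to 73.0. Every PVR value lay above every Normal value for all 10 genes, as it did for 24.7% of all genes tested. For 9 of the 10 the lowest PVR value was at least 4 times the highest Normal value, a gap seen in 3.29% of all genes tested, and for Irf8 it was 3.94 times. By size of log2 change the 10 genes held places between 17 (Lyz2) and 503 (Irf8) among the 15766.

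**Figure D1:**
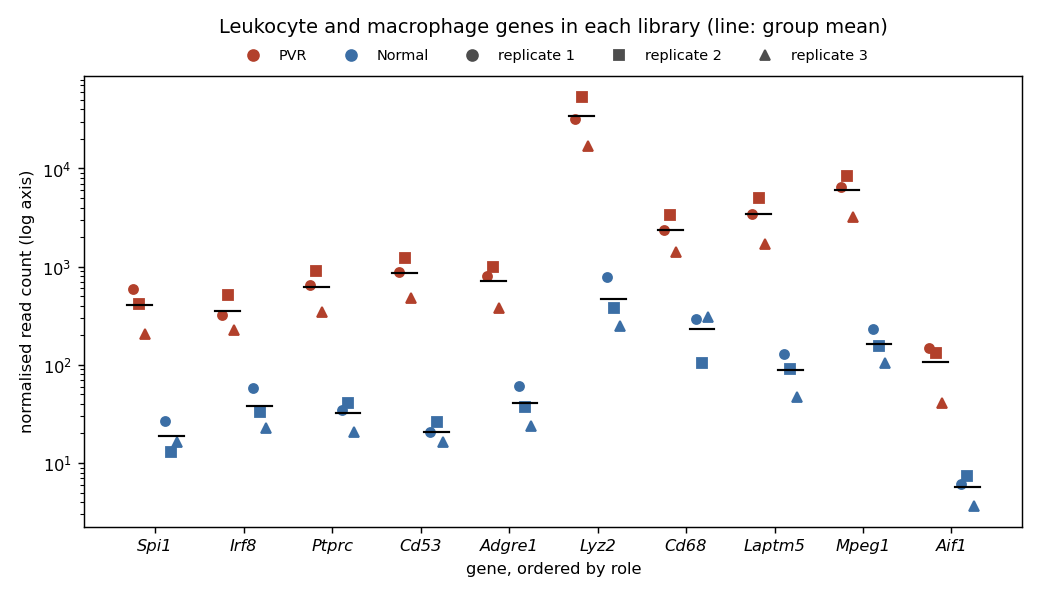
Normalised read counts (log axis) of the 10 genes in each PVR and Normal library, with marker shape for the replicate and a line for the group mean. Each gene has its 3 PVR values wholly above its 3 Normal values, and PVR replicate 3 is the lowest PVR library for all 10 genes.

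The 2 transcription factor genes came first in the order of roles. Spi1 (chromosome 2, 91082390 to 91115756 on GRCm38, plus strand) had 590.0, 421 and 204 normalised counts in PVR replicates 1 to 3, against 26.8, 13.0 and 16.3 in Normal replicates 1 to 3. PVR replicate 1 was the highest library, and the lowest PVR value was 7.61 times the highest Normal value. The Normal values rest on 26, 14 and 18 reads. Spi1 rose by a log2 change of 4.30 (SE 0.41, limma adjusted p = 0.000203). Irf8 (chromosome 8, 120736358 to 120756694, plus strand), which directs monocytes and dendritic cells, had 322, 511 and 228 normalised counts in PVR replicates 1 to 3, against 57.7, 33.3 and 22.7 in Normal. Its groups stood the closest together of the 10 genes, with PVR replicate 3 at 3.94 times Normal replicate 1. The log2 change was 3.21 (95% interval 2.31 to 4.11, limma adjusted p = 0.000648), the smallest of the 10.

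Surface proteins followed. Ptprc encodes the CD45 phosphatase of all nucleated blood cells (chromosome 1, 138062861 to 138175708, minus strand) and had 648, 893 and 342 normalised counts in PVR replicates 1 to 3, against 35.0, 40.7 and 20.8 in Normal. Replicate 3 was the lowest library in both groups. Its log2 change was 4.19 (SE 0.38, limma adjusted p = 0.00021). Cd53, which encodes a leukocyte tetraspanin (chromosome 3, 106759921 to 106790149, minus strand), had 886, 1211 and 476 normalised counts in PVR replicates 1 to 3, against 20.6, 25.9 and 16.3 in Normal. The Normal values lay closer together than those of any other of the 10 genes, with a coefficient of variation of 23.0%. Cd53 also had the smallest p of the 10 and rose by 5.21 (95% interval 4.44 to 5.98, limma adjusted p = 3.84e-05). Adgre1, the gene of the mouse macrophage antigen F4/80 (chromosome 17, 57358691 to 57483527, plus strand), had 800.1, 987 and 378 normalised counts in PVR replicates 1 to 3, against 60.8, 37.0 and 23.6 in Normal. Its log2 change was 4.11 (SE 0.45, limma adjusted p = 0.000848), and its lowest PVR value was 6.21 times its highest Normal value.

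The next 4 genes encode proteins of lysosomes, endosomes and their secretions. Lyz2, the lysozyme of myeloid cells (chromosome 10, 117277331 to 117282321, minus strand), had 32209, 53474 and 16984 normalised counts in PVR replicates 1 to 3, against 779, 377 and 251 in Normal. PVR replicate 2 was the highest library, and the lowest PVR value was 21.8 times the highest Normal value. The coefficients of variation were 53.6% in PVR and 58.8% in Normal, the widest Normal spread of the 10 genes. The log2 change was 6.20 (95% interval 4.72 to 7.67, limma adjusted p = 0.00118). Mpeg1 encodes perforin-2, a pore former of phagocytes (chromosome 19, 12460779 to 12465283, plus strand), and had 6446, 8434 and 3216 normalised counts in PVR replicates 1 to 3, against 232, 155 and 104 in Normal. Mpeg1 rose by 5.16 (SE 0.46, limma adjusted p = 0.000978), and its lowest PVR value was 13.9 times its highest Normal value. Laptm5, which encodes a lysosomal membrane protein of blood cells (chromosome 4, 130913125 to 130936141, plus strand), had 3473, 5029 and 1701 normalised counts in PVR replicates 1 to 3, against 129.9, 91.7 and 47.1 in Normal. The order of libraries was the same as for Mpeg1 in both groups, and the log2 change was 5.21 (SE 0.54, limma adjusted p = 0.00165).

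Cd68, the gene of macrosialin, a glycoprotein of phagocyte lysosomes (chromosome 11, 69664213 to 69666153, minus strand), stood apart from the other 9. It had 2354, 3330.3 and 1410.1 normalised counts in PVR replicates 1 to 3, against 292, 105 and 305 in Normal. The Normal order was unlike that of the other genes: Normal replicate 3, the lowest Normal library for 8 of the 10 genes, was the highest for Cd68 alone. The log2 change was 3.40 (95% interval 2.05 to 4.75), with the largest p of the 10 (limma adjusted p = 0.00709). The replicate numbers were taken to pair the samples on these data, not on a stated design. The main fit used no replicate block, and with the number as a block the Cd68 call was lost (limma adjusted p = 0.0519). Within numbers 1, 2 and 3 the Cd68 changes were 3.01, 4.98 and 2.20, the widest spread of the 10 genes, against 4.17, 4.42 and 3.97 for Ptprc, the narrowest. With replicates 1 and 2 alone the Cd68 change was 3.99.

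Aif1 encodes IBA1, an actin-bundling calcium-binding protein used to stain microglia and macrophages (chromosome 17, 35170991 to 35176068, minus strand). It had 147, 133 and 40.6 normalised counts in PVR replicates 1 to 3, against 6.18, 7.41 and 3.63 in Normal. The Normal values rest on 6, 8 and 4 reads, whose exact Poisson 95% intervals run from 1.09 to 15.8 reads and cover counting error only. At these reads Aif1 passed the filter on low counts only through PVR. The groups did not overlap, and PVR replicate 3 was far below the other PVR libraries (0.29 times their mean). The log2 change was 3.84 (95% interval 2.68 to 5.01, limma adjusted p = 0.000634). It was 4.43 without PVR replicate 3 and 3.22 with a pseudocount of 5.

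**Figure D2:**
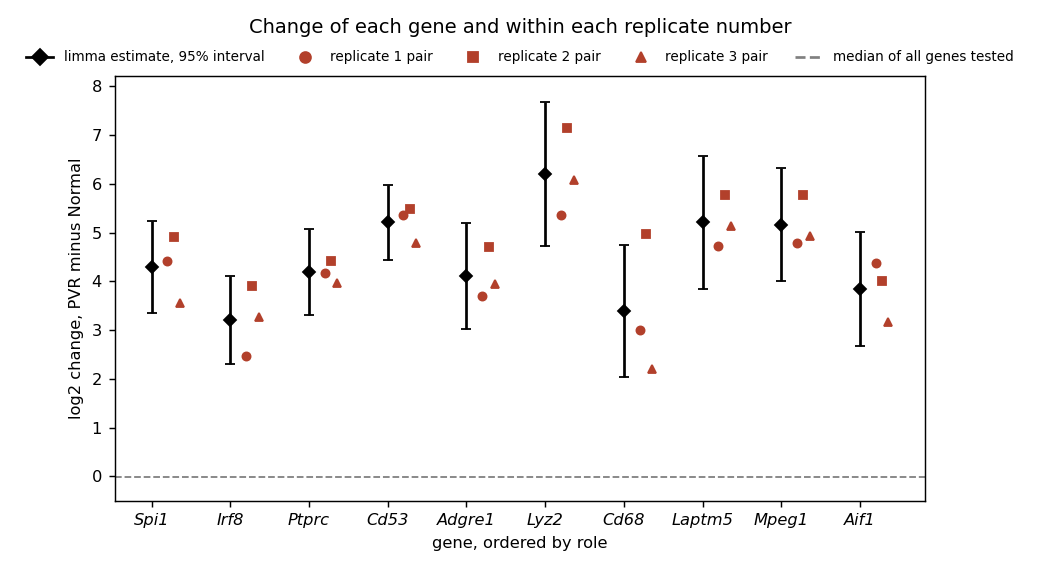
Log2 change of each of the 10 genes, PVR minus Normal, as the limma estimate with its 95% interval (black) and within each replicate number (red), with the median of all genes tested as a dashed line at -0.02. All 10 intervals lie above that line, and the changes within numbers are spread widest for Cd68 (2.20 to 4.98) and least for Ptprc (3.97 to 4.42).

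Levels can be compared between genes only per length, so normalised counts were divided by the length of the principal transcript in kilobases. On that scale Lyz2 led in PVR with 26005 ± 13927 (SD, n = 3), followed by Cd68 with 1923 ± 781, Mpeg1 with 1392 ± 608, Laptm5 with 1308 ± 640.4 and Cd53 with 492 ± 211. Adgre1 (223), Spi1 (199), Ptprc (133), Irf8 (124) and Aif1 (122) made up the lower levels per kilobase. Between neighbours in this PVR order, the ranges over 3 libraries lay apart for Lyz2 and Cd68 and overlapped for the rest, although Cd68 exceeded Mpeg1, and Mpeg1 exceeded Laptm5, within each PVR library. In Normal libraries Lyz2 led with 356 ± 210 per kilobase and Cd68 followed with 190.2 ± 91.2, ranges that overlapped. Cd68 lay apart from the next gene, Mpeg1 (37.7 ± 14.8), and all further neighbours overlapped down to Ptprc (6.85 ± 2.18) and Aif1 (6.56 ± 2.21). The orders differed most for Cd53, which held place 5 in PVR and place 7 in Normal, and Irf8, which held place 9 in PVR and place 5 in Normal.

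The 10 genes together summed to 47875, 74424 and 24979 normalised counts in PVR replicates 1 to 3, against 1639.8, 885 and 811 in Normal. They took 0.266%, 0.428% and 0.149% of all reads in PVR and 0.00999%, 0.0056% and 0.00467% in Normal. The sum was 44.1 times higher in PVR (49093 ± 24745 against 1112 ± 458, SD, n = 3 each, 2-sided exact permutation p = 0.1, the smallest that 3 against 3 allows). Lyz2 dominated that sum, and the other 9 genes alone gave a ratio of 23.1.

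The PVR libraries were ordered alike for these genes. PVR replicate 3 was the lowest for all 10, at 0.29 to 0.55 times the mean of PVR replicates 1 and 2 (median 0.43). It was the lowest PVR library for 34.7% of all genes tested and for 74.1% of the 2825 genes called higher, where the median of the same ratio was 0.76. PVR replicate 2 was the highest for 8 of the 10, and PVR replicate 1 for Spi1 and Aif1. Among Normal libraries, replicate 1 was the highest for 6 genes, replicate 2 for 3 and replicate 3 for Cd68.

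Dividing each gene by Ptprc in the same library shows how the genes stood to each other where the amount of leukocyte transcript differed. The coefficient of variation of these ratios had a median of 6.78% over 9 genes within PVR and 34.0% within Normal. Within PVR it ran from 1.36% for Cd53 to 33.9% for Aif1 and 34.3% for Spi1, and Aif1 varied least within Normal (2.27%). That Normal value rests on 6, 8 and 4 Aif1 reads, whose counting error is far wider, so it shows no fixed proportion. Cd53 stood at 1.37, 1.36 and 1.39 times Ptprc in PVR replicates 1 to 3, against 0.59, 0.64 and 0.78 in Normal. Mpeg1 stood at 9.95, 9.45 and 9.41 times Ptprc in PVR, against 6.62, 3.80 and 5.0 in Normal. Both genes kept an almost fixed proportion to Ptprc in PVR although Ptprc itself varied there by 44.0%. Lyz2 stood at 49.7, 59.9 and 49.7 times Ptprc in PVR, against 22.2, 9.25 and 12 in Normal, and Laptm5 at 5.36, 5.63 and 4.98 in PVR, against 3.71, 2.25 and 2.26 in Normal. Irf8 went the other way, with 0.50, 0.57 and 0.67 times Ptprc in PVR, against 1.65, 0.82 and 1.09 in Normal. So for 4 of the 9 genes the ratio was higher in every PVR library than in any Normal library, for 1 it was lower in every PVR library, and for 4 (Cd68, Adgre1, Aif1 and Spi1) the groups overlapped. The 2-sided exact permutation p was 0.1 for the 5 that did not overlap (0.18 adjusted over the 9 ratios), the smallest this design allows, so none of these ratios passed a test. Normal ratios rest on 23 to 44 Ptprc reads per library.

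**Figure D3:**
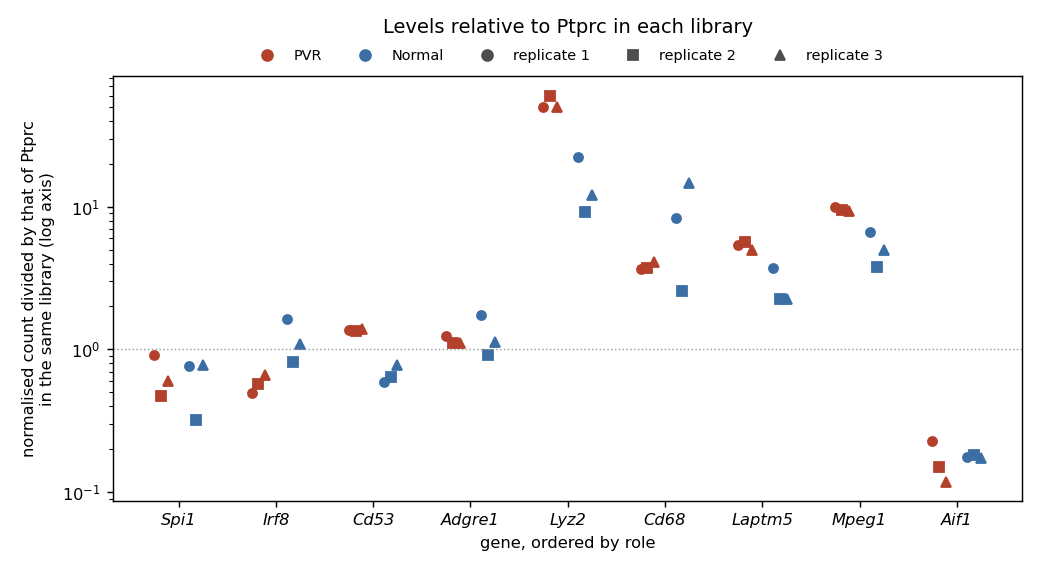
Normalised count of each gene divided by that of Ptprc in the same library (log axis), for PVR and Normal libraries with marker shape for the replicate. Cd53, Lyz2, Mpeg1 and Laptm5 sit higher in all 3 PVR libraries than in any Normal library, Irf8 sits lower, and the PVR points of Cd53 (1.36 to 1.39) nearly coincide.

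Lyz2 has a near copy beside it on chromosome 10, Lyz1 (117287797 to 117292868), the lysozyme of Paneth cells in the intestine. Of the 50-base stretches in Lyz2 transcripts 15.4% also occur in Lyz1, so reads from them could be given to either gene. Lyz1 had 27.8, 25.1 and 14.2 normalised counts in PVR replicates 1 to 3, against 5.15, 5.56 and 3.63 in Normal. These levels rest on 15 to 27 reads in PVR and 4 to 6 in Normal, a trace beside Lyz2, and Lyz1 rose by a log2 change of 1.98 (limma adjusted p = 0.011). Without PVR replicate 1 that call was lost (limma adjusted p = 0.0543). In Ptprc the share of 50-base stretches found in another gene was 0.0754%, in the other 8 genes it was 0%, and none of the 10 shared annotated exon bases with another gene.

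PU.1 is a factor of the myeloid lineage, and its control of these genes was not tested. The 250 bases before the annotated RefSeq start (GRCm38.p6) were searched for PU.1 core letters. The table of promoters held 8 of the 10 genes. AGGAAG on either strand was present for 3 of the 8 (Laptm5, Lyz2 and Ptprc) and for 32.3% of all 27025 genes in the table, and GAGGAA for 5 of the 8 (Aif1, Cd53, Cd68, Laptm5 and Ptprc) and for 25.9% of all, counting a gene once if any of its promoters held the letters. The motifs can overlap each other, as they do in Laptm5. One or the other was present for 6 of the 8 genes, not for Mpeg1 or Irf8, and for 42.4% of all genes. The ETS-IRF composite element was found for 0 of the 8 and for 2.68% of all genes, and the core of the interferon response element for Aif1 and for 3.46% of all. A match describes letters and is not evidence of a bound site. The stretches lying outside the GENCODE gene are shown for Cd53, with the smallest p of the 10, for Cd68, which stood apart, and for the copies Lyz2 and Lyz1, read 5′ to 3′ on the strand of the gene with the PU.1 letters in capitals (TTCCTC and CTTCCT are the same letters on the other strand).
Cd53, chr3:106790150-106790399, minus strand: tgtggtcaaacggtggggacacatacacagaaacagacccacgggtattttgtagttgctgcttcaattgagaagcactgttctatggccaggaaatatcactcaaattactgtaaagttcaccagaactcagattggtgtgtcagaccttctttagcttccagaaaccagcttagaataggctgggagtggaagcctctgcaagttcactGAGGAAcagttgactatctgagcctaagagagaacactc
Cd68, chr11:69666171-69666420, minus strand: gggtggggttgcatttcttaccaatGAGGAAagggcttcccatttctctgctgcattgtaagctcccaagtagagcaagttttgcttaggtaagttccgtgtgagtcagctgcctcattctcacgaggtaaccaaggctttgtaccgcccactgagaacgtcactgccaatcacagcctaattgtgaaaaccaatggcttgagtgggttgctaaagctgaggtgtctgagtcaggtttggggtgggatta
Lyz2, chr10:117282322-117282522, minus strand: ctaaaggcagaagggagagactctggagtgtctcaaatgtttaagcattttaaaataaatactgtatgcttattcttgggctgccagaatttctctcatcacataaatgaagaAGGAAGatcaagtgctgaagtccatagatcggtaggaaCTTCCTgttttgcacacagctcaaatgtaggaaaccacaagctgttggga
Lyz1, chr10:117292869-117293118, minus strand: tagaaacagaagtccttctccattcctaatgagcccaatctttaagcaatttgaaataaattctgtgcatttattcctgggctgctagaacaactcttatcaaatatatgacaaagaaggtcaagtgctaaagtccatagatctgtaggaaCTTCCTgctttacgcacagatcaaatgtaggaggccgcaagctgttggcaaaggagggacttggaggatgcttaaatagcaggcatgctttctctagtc
Compared position by position with no gaps allowed, Lyz2 and Lyz1 shared 92% of the 100 bases next to the start, including the match on the other strand, and 60.8% of all 250, a count that an inserted or lost base lowers. AGGAAG on the strand of the gene was found in the Lyz2 window and not in the Lyz1 window. The Lyz2 stretch is shorter because its RefSeq start lies inside the GENCODE gene.

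Other genes of the same lineage were read from lists that do not contain the 10. Genes of these lists with few Normal reads passed the filter only through PVR, such as Evi2a with 3, 3 and 1 reads in Normal replicates 1 to 3. Of 30 leukocyte signalling and cytoskeleton genes, all tested, 29 were higher and 1 was not called, with a median log2 change of 4.0. Among them were Syk, the kinase of Fc and C-type lectin receptors (962 ± 321 in PVR, against 68.8 ± 7.79 in Normal), the actin-binding coronin gene Coro1a (282 ± 92.2 against 17.8 ± 0.68), the Rac activator gene Dock2 (459 ± 213 against 23.7 ± 5.52) and the exchange factor gene Vav1 (241 ± 97.9 against 9.53 ± 1.86). The exception was Fermt3, the integrin activator kindlin-3 (422 ± 159 against 238 ± 176, limma adjusted p = 0.263). Of 24 tested macrophage and monocyte markers, 21 were higher, 2 lower and 1 was not called, with a median log2 change of 4.34. Trem2, a lipid receptor of phagocytes, had 1365 ± 598 in PVR and 31.6 ± 7.14 in Normal, and the integrin gene Itgam 248 ± 98.3 in PVR and 3.87 ± 2.58 in Normal. The scavenger receptor gene Msr1 (215 ± 97.2 against 7.70 ± 2.41) and the Fc receptor chain gene Fcer1g (877 ± 422 against 31.7 ± 7.39) were also higher.

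The 2 that fell had high levels in Normal. Csf1r, the receptor for macrophage colony-stimulating factor, had 6367, 7575 and 8235 normalised counts in PVR replicates 1 to 3, against 9343, 9591 and 11181 in Normal (log2 change -0.44, limma adjusted p = 0.0255). Mertk, a phagocytic receptor that RPE cells also use, had 3931 ± 305 in PVR and 5048 ± 319 in Normal (log2 change -0.36, limma adjusted p = 0.0267). The Csf1r call was lost without PVR replicate 1 (limma adjusted p = 0.0928), PVR replicate 2 (0.053) or Normal replicate 3 (0.0862), and the Mertk call without PVR replicate 1 (0.0756), PVR replicate 3 (0.0709), Normal replicate 1 (0.0802) or Normal replicate 3 (0.0804). The Mertk call was also lost with replicates 1 and 2 only (limma adjusted p = 0.147) and without both Normal replicate 2 and PVR replicate 3 (0.101).

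Of 16 tested myeloid transcription factor genes beside Spi1 and Irf8, 9 were higher and 7 were not called, with a median log2 change of 1.65. Runx1, a factor of blood stem and progenitor cells, had 763 ± 173 in PVR and 78.8 ± 14.8 in Normal, and Irf5, a factor of inflammatory macrophages, 266 ± 103 in PVR and 14 ± 1.3 in Normal. The myeloid factor gene Cebpa was higher too (772 ± 277 in PVR and 73.3 ± 10.2 in Normal). Not called were Maf, Bhlhe41, Nr4a1, Klf2, Klf4, Cebpb and Cebpd, of which Klf2 had 652 ± 202 in PVR and 289 ± 170 in Normal. The number called higher was 5 without PVR replicate 1 and 5 without PVR replicate 2. The other 4 of the 20 listed factors had too few reads for the test.

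Markers of other blood cells were read because Ptprc, Laptm5, Cd53, Spi1, Irf8 and Lyz2 are shared with them. The 12 T cell markers summed to 88.8 to 154 normalised counts in PVR and 14.4 to 23.6 in Normal. Cd3e, a defining T cell receptor chain gene, had 3.09, 3.42 and 5.67 in PVR replicates 1 to 3, against 0, 0.93 and 0 in Normal, and the only T cell marker with enough reads for the test was Cd28 (48.3 ± 38.5 in PVR and 0.65 ± 0.57 in Normal). Cd28 passed the filter only through PVR, with 1, 1 and 0 reads in Normal replicates 1 to 3. The 10 B cell markers summed to 141 to 308 in PVR and 23.2 to 44.3 in Normal, and most of the PVR sum was Cd22 (180.0 ± 80.7 in PVR and 3.67 ± 3.99 in Normal). Of 3 tested B cell markers 2 were higher, Cd22 and Ighm, and both passed the filter only through PVR. Ighm had 39, 27 and 23 reads in PVR replicates 1 to 3, against 7, 8 and 4 in Normal (limma adjusted p = 0.00573). The 8 NK cell markers summed to 29.3 to 50.5 in PVR and 0.91 to 8.25 in Normal, and 0 of them had enough reads for the test. At 0 reads in all 3 Normal libraries were 3 of the 12 T cell markers, 4 of the 10 B cell markers and 2 of the 8 NK cell markers, and 0 markers of these lists were at 0 in all 3 PVR libraries. Other defining markers had few reads in both groups. Among them Cd3g had 2, 2 and 3 reads in PVR replicates 1 to 3, against 0, 0 and 0 in Normal, and Ms4a1 had 1, 1 and 0 in PVR, against 0, 0 and 0 in Normal. The B cell genes Cd79a (15, 3 and 12 reads in PVR, against 9, 3 and 5 in Normal) and Pax5 (10, 2 and 2 in PVR, against 4, 0 and 7 in Normal) overlapped between the groups, and the plasma cell gene Jchain was not called (8, 9 and 10 in PVR, against 15, 12 and 10 in Normal).

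Neutrophil markers summed to 245 to 521 normalised counts in PVR and 19.9 to 47.4 in Normal over 12 genes, of which 5 were tested and all 5 were higher. S100a8, S100a9 and Mmp8 had at most 6 reads in any Normal library and passed the filter only through PVR. A call of lower was therefore not open to them, and the count of 5 is a description only. Most of the PVR sum was the receptor gene Csf3r (263 ± 120 in PVR and 14.4 ± 6.24 in Normal). The granule gene S100a8 had 51.5, 17.1 and 16.1 in PVR replicates 1 to 3, against 3.09, 0 and 0 in Normal. The other 7 of the 12 had at most 10 reads in any library and were not tested. Of these, 4 were at 0 reads in all Normal libraries, with PVR reads of 10, 6 and 2 for Cxcr2, 10, 2 and 0 for Retnlg, 2, 0 and 6 for Ngp, and 2, 1 and 4 for Ltf. The groups overlapped for the other granule genes, Camp (1, 0 and 2 reads in PVR, against 5, 0 and 0 in Normal), Mpo (2, 0 and 0 in PVR, against 0, 1 and 1 in Normal) and Elane (0, 0 and 2 in PVR, against 2, 1 and 0 in Normal). Of 5 tested dendritic cell markers 3 were higher, Ccr7, Itgax and Flt3 (19.7 ± 6.43 in PVR and 0.34 ± 0.6 in Normal), and 2 were not called, Zbtb46 and Ccr9. Ccr7 and Flt3 likewise passed the filter only through PVR. The Itgax call was lost under 5 of 17 alternatives. Among these were the fits without PVR replicate 1 (limma adjusted p = 0.0756), 2 (0.0826) or 3 (0.0533). Beside the sums of these marker lists the 9 genes without Lyz2 reached 7995 to 20950 normalised counts in PVR and 508 to 861 in Normal. These 9 include the shared genes Ptprc, Laptm5, Cd53, Spi1 and Irf8. The sums are not per length and cover unlike numbers of genes, so they give no proportion of cells. The part of other blood cells in the levels of the shared genes was not tested.

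Red cell transcripts moved the opposite way in the same libraries. All 3 tested erythroid markers were lower, and Hba-a1, an alpha globin gene, had 7.21, 2.28 and 0.94 normalised counts in PVR replicates 1 to 3, against 128, 161 and 67.1 in Normal (limma adjusted p = 0.000303). The beta globin gene Hbb-bs had 12.4, 5.69 and 2.83 in PVR replicates 1 to 3, against 129, 205 and 78.8 in Normal. Globin genes come in nearly identical copies between which reads may be split, which makes these levels uncertain. Of 7 tested fibroblast markers 6 were higher, with a median log2 change of 1.79.

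**Figure D4:**
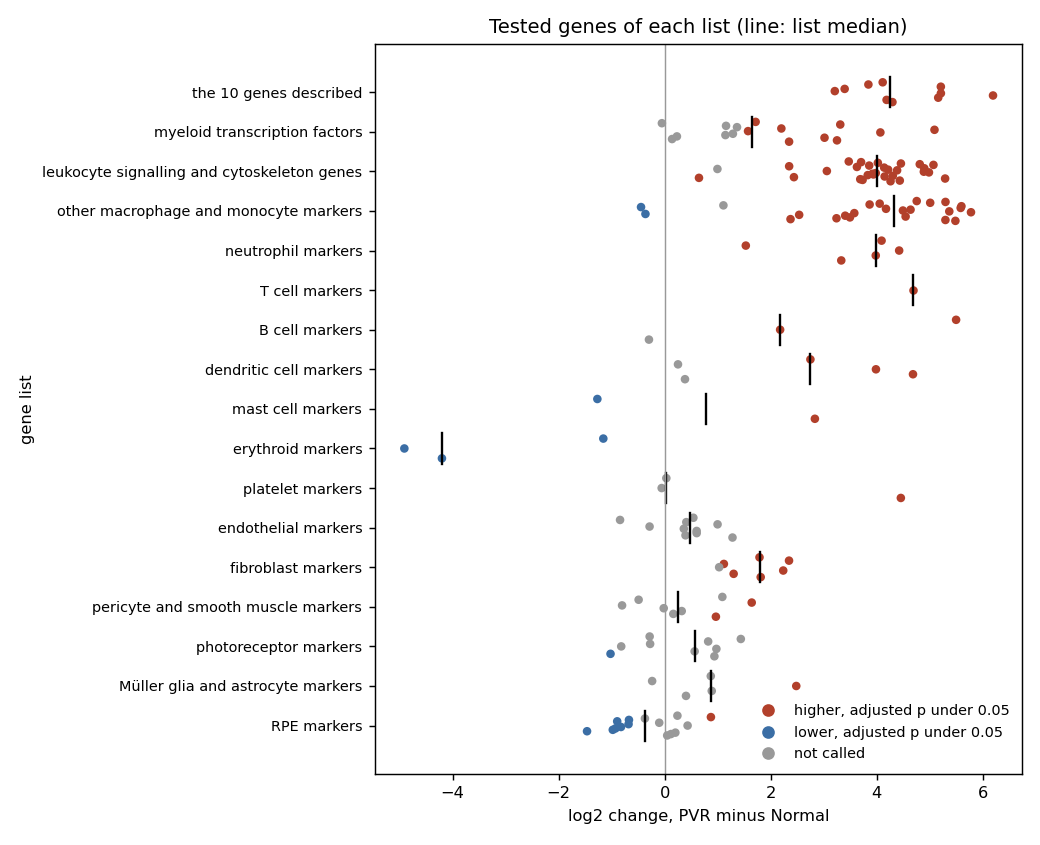
Log2 change, PVR minus Normal, of every tested gene in each list, coloured by the limma call at an adjusted p of 0.05, with a line at the list median. The 10 genes described, the leukocyte signalling genes and the macrophage markers have medians of 4.24, 4.0 and 4.34, and the 3 erythroid markers tested lie below 0.

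The genes with profiles most like the mean of the 10 over the 6 libraries were Fcgr2b, Vsir, Slc11a1, C1qa, Lcp1, Itgb2, Fcer1g and Adam8, by the root mean square difference of centred log2 values. That difference was 0.21 for Fcgr2b, an inhibitory Fc receptor gene, and 0.30 for Adam8. Fcgr2b had 763, 1162 and 398 normalised counts in PVR replicates 1 to 3, against 52.6, 32.4 and 17.2 in Normal. Among the 10 themselves the difference was smallest for Adgre1 (0.22) and Ptprc (0.27) and largest for Lyz2 (0.89), Cd68 (0.78) and Irf8 (0.67). The likeness is over 6 libraries that share their grouping, and it is a description only.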

How the data were processed

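Polyadenylated RNA of primary RPE cells was measured in 3 PVR and 3 Normal mouse libraries, grouped by title. Files deposited by the authors give a normalised signal for each gene symbol. All values (100%, within 0.001 reads) came out as whole reads once multiplied by 1 size factor per library, equal to the median-ratio factor recomputed here (ratio 1). The submitters' processing notes list mm10 and DESeq2 but not how they were used. Aligner, counter and strand setting: not given in the sources used here.

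Groups were compared by limma 3.58.1 under R 4.3.3, robust and with a mean-variance trend, on normalised counts in log2 after adding 1, over genes passing filterByExpr on the recovered reads (minimum count 10), with Benjamini-Hochberg adjustment over all 15766 genes and a threshold of 0.05. A gene short of reads in Normal passed this filter through PVR alone, and for such a gene a call of lower was not possible. An adjusted p is limma's unless another tool is named. Count tests on the recovered reads were edgeR 4.0.16 (quasi-likelihood, 2788 genes higher) and DESeq2 1.42.0 (2889 higher). The scripts were tested on simulated data. Between PVR and Normal libraries of the same number the deviations from the group means correlated at 0.237, 0.23 and 0.181. Between libraries of different numbers the correlations ran from -0.168 to -0.0562. The replicate numbers of the titles were therefore taken to pair the samples, on these data and not on a stated design. The main fit stayed without a block, and the block was run as an alternative. Coordinates and transcript lengths are from GENCODE M21 (GRCm38). Principal transcripts are those with an APPRIS principal tag, the longest per gene. Dates stand in place of 26 gene names, none used here. A count of 0 allows up to 3 reads, or 2.72 to 3.42 normalised counts.

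The 10 genes, the gene lists and the tests were chosen with earlier results of these data known. Named genes were the 10, the copy Lyz1, the 4 genes with the smallest p and any called lower in each lineage list, called or defining markers of other blood cells, and the 8 most similar profiles among genes whose log2 CPM averaged 3 or more. The uncalled genes of the lineage lists and the markers Cd3e, Cd3g, Cd79a, Ms4a1, Pax5, Jchain, Cxcr2, Retnlg, Ngp, Ltf, Camp, Mpo, Elane, Zbtb46 and Ccr9 were chosen after their values were seen. Alternatives were other tests, scalings, pseudocounts, filters, a replicate block and libraries left out. Of the listed marker symbols 3 were not analysed here, and single values of some listed genes are not reported here.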

Additional observations from a re-analysis of the deposited data

How the results depend on the processing

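Over 17 alternatives the 10 genes gave 170 values, and 169 kept their direction and call; the exception was Cd68 with the replicate block (limma adjusted p = 0.0519). The block changed no other call of the 10, and over all genes it gave 5328 calls against 4858 without it. By edgeR the 10 adjusted p-values ran from 0.000146 to 0.00131 and by DESeq2 from 9.33e-51 to 5.59e-08. The median log2 change of the 10 stayed between 4.04 and 4.65 when a library was left out, and between 4.03 and 4.69 under the other alternatives. Aif1 was the gene most moved, to 4.43 without PVR replicate 3, 4.61 without both Normal replicate 2 and PVR replicate 3, and 3.22 with a pseudocount of 5. The cause was not tested.

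Scaling to library totals shifted all log2 changes by -0.07. The log2 ratio of the summed level was 5.46 and ran from 5.03 to 5.86 with 1 library left out. It was 4.53 without Lyz2, by construction. Leaving out 1 library, the number of all genes called lower, 2033, became 1312 to 2012, with the smallest number without Normal replicate 1. Among myeloid transcription factors the number higher, 9, became 5 to 10, with 5 without PVR replicate 1 or 2. The number of macrophage markers called lower, 2 (Csf1r and Mertk), became 0 to 2, with 0 without PVR replicate 1 or Normal replicate 3. That number was 1 with replicates 1 and 2 only, and 1 without Normal replicate 2 and PVR replicate 3, with the Mertk call lost in each. A call lost with fewer libraries does not show a weaker change. Depth limits Aif1 and Lyz1 most, whose Normal libraries hold 4 to 8 and 4 to 6 reads.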
